A study of Mus musculus with 12 samples.

Results

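The comparison described here is the response to LPS at 4 h in mouse bone marrow macrophages that carry a kinase-dead form of IRAK4 (IRAK4-KD): 2 arrays of cells kept for 4 h with LPS at 1 µg/ml against 2 arrays of cells kept for 4 h without it. These are 4 of the 12 arrays of the study. They were chosen by their labels, not by any measured value, and the description covers the 12914 genes that passed the filter on dim signals. The remaining arrays are IRAK4-KD cells after 1 h of LPS and wild-type (WT) cells kept for 4 h without LPS, for 1 h with LPS or for 4 h with LPS, again with 2 arrays a group. All 6 groups shared a serum-containing macrophage culture medium with L-929 cell supernatant, which supplies the growth factor CSF1 in such cultures. The design calls the 2 arrays of a group biological replicates and does not say whether they came from separate animals, so p-values measure the spread between these cultures. Neither the making of the kinase-dead allele nor the age of the mice is stated in the labels.

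LPS, the lipid of the Gram-negative outer membrane, is bound by TLR4 together with CD14 and MD-2, and TLR4 signals through a pair of adaptor routes. MyD88 assembles a complex with IRAK4, IRAK1 and TRAF6 that activates NF-κB and the MAP kinases, while TRIF, reached from endosomes through TRAM, engages TBK1 and IRF3, induces interferon beta and also feeds into NF-κB. IRAK4 acts in the MyD88 complex both as a scaffold and as a kinase, and a kinase-dead form lacks the enzyme activity. The question put to these arrays is which transcripts still move in cells of that genotype.

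With 0 probe sets annotated as Irak4, its mRNA was not analysed here and gives no check of the genotype labels. The cells carried macrophage transcripts: the summed signal of 13 macrophage markers, among them Csf1r, Cd68 and Adgre1, was 48937 to 57564 on the unstimulated and 44899 to 46818 on the LPS 4 h IRAK4-KD arrays. Of these 13 markers 4 were called lower (Cd68, Lyz2, Ctsb and Lgals3, with log2 changes of -0.36, -0.34, -0.37 and -0.39). That count was 0 without IRAK4-KD unstimulated replicate 1, the array with the highest ratio of 3' to 5' control signal (log2 ratios of 1.35 for Gapdh and 3.04 for Actb), 1 without IRAK4-KD LPS 4 h replicate 1 and 2 without LPS 4 h replicate 2. Markers of stromal cells moved the other way. Of 13 tested, 8 were called higher at 4 h (Col3a1, Col6a1, Col6a2, Pdgfra, Sparc, Fn1, Cxcl12 and Cdh11), with a list median of 0.74. Cdh11, a cadherin of mesenchymal cells, went from 317 and 264 to 859 and 755. The summed stromal signal was 3328 to 4068 on the IRAK4-KD unstimulated arrays, 5561 to 7265 after 1 h and 6469 to 6728 after 4 h of LPS, against 5572 to 7354 on the 6 WT arrays, so the unstimulated IRAK4-KD cultures were the lowest of all 12 arrays in these transcripts. Without LPS 4 h replicate 1 the count of 8 was 4, and without unstimulated replicate 2 it was 5. Fewer cells of a type and less RNA per cell cannot be told apart in such bulk RNA, and the part of stromal RNA in the results that follow was not tested. Of 17 tested markers of lymphoid, dendritic, erythroid, mast and endothelial cells 0 were called by limma, with 4 at an unadjusted p under 0.05, and the neutrophil list had 1 of 4 called, Mmp8, which fell.

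At 4 h, IRAK4-KD macrophages raised chemokines, interferon-induced antiviral genes, guanylate-binding proteins, surface activation molecules and NF-κB regulators, and lowered genes such as Rgs2, Rnf144b, Cebpa and Ccnd1. Of the 12914 genes, 795 were called higher (6.16%) and 771 lower (5.97%) by limma at an adjusted p under 0.05, where a call is made on log2(signal + 4.4), a scale that understates the change of dim genes. The increases were larger than the decreases. At least 2-fold changes were called in 392 genes upward and 162 downward, at least 4-fold in 108 and 13, at least 8-fold in 39 and 0, and at least 16-fold in 10 and 0. The arrays of both groups did not overlap in any called gene, a property shared by 21.2% of all tested genes in the upward and 30.2% in the downward direction. When each of the 12 arrays was left out in turn, 432 of the 795 and 253 of the 771 calls were kept in every fit. Over probe sets, 1480 (5.3%) were called higher and 1312 (4.7%) lower, so that 53% of calls were increases, and this share was 64.5% when each array was centred on its median. Without unstimulated replicate 1 the counts were 1547 and 916, without LPS 4 h replicate 1 they were 946 and 630, and without LPS 4 h replicate 2 they were 989 and 853. A variance prior without a trend over mean signal gave 840 and 486. The median log2 change of all tested genes was -0.06, against which list medians can be read. Counts of called list members can be read against the shares of 6.16% higher and 5.97% lower over all genes.

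Each of the 25 largest increases kept its call whichever array was left out, and all 25 were also called higher in WT. Cxcl1, a neutrophil-attracting chemokine, stood first. Its signal was 112 and 71.6 on the unstimulated arrays and 3419 and 3433 on the LPS arrays, a log2 change of 5.19 ± 0.14 (± SE of the fit, here and below; adjusted p = 8.9e-15). Cxcl5, another ligand of the neutrophil receptor CXCR2, had 11.7 and 19.5 without LPS and 718 and 598 with it (5.07 ± 0.21; adjusted p = 3.8e-12). Cxcl10, an interferon-induced attractant of T cells, rose from 25 and 35.8 to 866 and 946 (4.73 ± 0.20; adjusted p = 3.3e-12). Cd40, the receptor through which T cells activate antigen-presenting cells, was close to the pseudocount without LPS, at 5 and 5.8, and reached 216 and 266 (4.64 ± 0.31; adjusted p = 3.1e-09). Adamts4, a protease that cleaves aggrecan, went from 56.5 and 46.2 to 1076 and 1302 (4.42 ± 0.24; adjusted p = 2.0e-10). In each of these genes the lower LPS array lay far above the higher unstimulated array. The set of 25 also held Traf1, an adaptor of TNF receptors (3.71), Tpbg, a trophoblast glycoprotein (3.40), and Calhm6, Itgb8 and Zfp811 (3.82, 3.72 and 3.70). Calhm6, Itgb8, Il6, Mx2, Nr4a3 and Cxcl11 were under 4.4 on at least 1 unstimulated array, and the size of such changes moved with the pseudocount: Calhm6 changed by 4.76 with a pseudocount of 1 and by 2.19 with one of 23.4, and Il6 by 4.48 and 2.12.

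**Figure D1:**
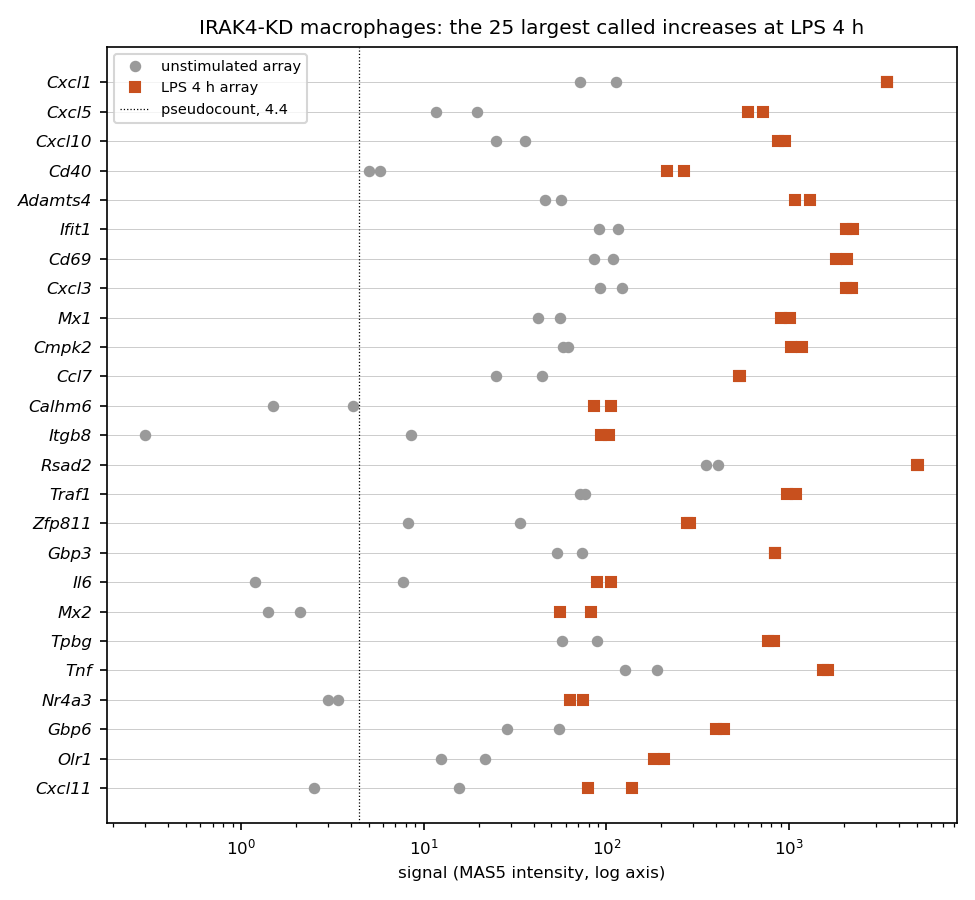
Signal on each IRAK4-KD array (log axis) of the 25 genes with the largest called increase at LPS 4 h, grey circles without LPS and orange squares with LPS; the dotted line marks the pseudocount of 4.4. The groups do not overlap in any of the 25 genes, and the mean unstimulated signal was lowest in Mx2 (2.1 and 1.4 on the 2 arrays) and highest in Rsad2 (410.1 and 353).

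Upstream sequences of leading increases, taken by rank, are shown, and the genes shown belong to the chemokine and the interferon-induced groups. The 250 bases upstream of the RefSeq start site (build GRCm38.p6, 5′ to 3′ on the strand of the gene) follow for the first 5 of the 25 genes with an entry, with matches to any of 3 motifs in capitals: GAAANNGAAA, the core of the interferon-stimulated response element, GGGNNTTTCC, an NF-κB-like site, and TGANTCA, an AP-1 site, each searched on both strands. Cxcl1 lies at chr5:90890995-90891244, plus strand, Cxcl10 at chr5:92348890-92349139, minus strand, Ifit1 at chr19:34640639-34640888, plus strand, Cxcl3 at chr5:90785851-90786100, plus strand and Cmpk2 at chr12:26468965-26469214, plus strand.
Cxcl1: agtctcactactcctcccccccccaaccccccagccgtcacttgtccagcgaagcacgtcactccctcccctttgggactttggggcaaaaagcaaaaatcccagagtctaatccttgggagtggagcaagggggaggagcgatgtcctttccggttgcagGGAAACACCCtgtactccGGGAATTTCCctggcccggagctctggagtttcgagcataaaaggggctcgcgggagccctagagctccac
Cxcl10: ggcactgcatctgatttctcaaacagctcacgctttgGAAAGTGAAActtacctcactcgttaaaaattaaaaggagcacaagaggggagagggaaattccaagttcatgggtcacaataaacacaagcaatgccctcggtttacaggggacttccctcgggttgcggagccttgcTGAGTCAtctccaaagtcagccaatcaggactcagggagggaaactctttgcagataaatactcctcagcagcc
Ifit1: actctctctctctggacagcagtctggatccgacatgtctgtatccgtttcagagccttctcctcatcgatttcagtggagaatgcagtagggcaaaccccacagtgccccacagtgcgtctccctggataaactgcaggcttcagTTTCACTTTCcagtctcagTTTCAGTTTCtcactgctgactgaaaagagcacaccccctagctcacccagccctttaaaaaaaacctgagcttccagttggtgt
Cxcl3: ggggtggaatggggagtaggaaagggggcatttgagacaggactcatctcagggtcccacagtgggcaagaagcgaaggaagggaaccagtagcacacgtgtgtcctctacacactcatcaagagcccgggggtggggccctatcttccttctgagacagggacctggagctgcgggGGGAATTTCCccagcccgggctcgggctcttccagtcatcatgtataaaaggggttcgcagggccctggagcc
Cmpk2: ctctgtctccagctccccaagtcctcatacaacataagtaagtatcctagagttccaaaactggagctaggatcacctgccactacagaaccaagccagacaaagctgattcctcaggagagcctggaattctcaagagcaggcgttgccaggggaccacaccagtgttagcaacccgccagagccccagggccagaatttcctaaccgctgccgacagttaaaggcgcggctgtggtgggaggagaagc
Cxcl1 held GGAAACACCC at -89 to -80 and GGGAATTTCC at -71 to -62 from the start site, and Cxcl3 held GGGAATTTCC at -73 to -64, all NF-κB-like. Cxcl10 held the interferon motif as GAAAGTGAAA at -213 to -204 and the AP-1 motif as TGAGTCA at -74 to -68. Ifit1 held the interferon motif on the opposite strand, as TTTCACTTTC at -104 to -95 and TTTCAGTTTC at -85 to -76. Cmpk2 held 0 matches, which says only that these letters are not in this window. The interferon motif was present in 2.98% of all 32851 promoters of the table, in 2.66% of the 13307 promoters of tested genes, in 6.02% of 798 promoters of genes called higher and in 2.3% of 869 promoters of genes called lower. The NF-κB-like motif was in 1.41%, 1.47%, 2.88% and 1.27% of the same sets, and the AP-1 motif in 6.75%, 4.91%, 7.02% and 5.18%. The interferon motif was in 6 of the 8 promoters of called interferon-inducible GTPases and in 4 of the 21 promoters of called antiviral effectors. The NF-κB-like motif was in 3 of the 6 promoters of called CXC chemokines and in 0 of the 2 of called CC chemokines. These are matches of letters and not measured binding.

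Of 13 CXC chemokines tested, 9 were called higher and 0 lower, with a median log2 change of 2.52. Beside Cxcl1, Cxcl5 and Cxcl10 these were Cxcl3 (92.5 and 122 without and 2199.8 and 2059.8 with LPS; 4.27 ± 0.16), Cxcl2, Cxcl11, Cxcl9, Cxcl12 and Cxcl16. Cxcl2, a further CXCR2 ligand, had 366 and 541 without LPS and 4187 and 4088 with LPS, a change of 3.20 ± 0.13 (adjusted p = 2.3e-12). The interferon-induced CXCR3 ligands Cxcl11 and Cxcl9 changed by 3.21 ± 0.45 and 2.52 ± 0.65, the latter from 1 and 2.6 to 37.5 and 25.4. Cxcl12, which is on the stromal marker list, went from 96.9 and 46.9 to 173 and 149.6 (1.20 ± 0.27). Pf4, Ppbp, Cxcl13 and Cxcl14 were not called, with changes of -0.08, 0.01, 0.44 and -0.28. A variance prior with no trend gave 6 calls in place of 9, and Cxcl9, Cxcl12 and Cxcl16 were the members that lost calls when arrays were left out.

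Of 13 CC chemokines 6 were called higher and 0 lower, with a median of 1.26. The monocyte attractants Ccl7, Ccl2 and Ccl12 changed most. Ccl7 had 24.8 and 44.2 without LPS and 537 and 534 with LPS (3.84 ± 0.21; adjusted p = 2.1e-10), and Ccl2 went from 244 and 279.7 to 2058 and 1739.5 (2.84 ± 0.11; adjusted p = 1.4e-12). The inflammatory chemokines Ccl4, Ccl3 and Ccl5 changed by 2.29 ± 0.13, 1.61 ± 0.08 and 1.32 ± 0.09, and their unstimulated signals were already 369.7 and 358, 2094 and 2309 and 1455 and 1470.3. Ccl22 and Ccl17, ligands of CCR4, changed by 1.26 and 1.13 and were not called. Of the 6 chemokine receptors tested, Ccrl2, a receptor that binds chemerin without signalling, rose by 2.91 ± 0.15, and Cxcr3, Ccr1 and Cxcr4 fell, with changes of -1.32 ± 0.28, -0.87 ± 0.21 and -0.32 ± 0.08. The count of 3 falls was 1 without LPS 4 h replicate 1, LPS 4 h replicate 2 or unstimulated replicate 1.

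Many interferon-induced genes rose, while the interferon beta transcript was not called. All 9 interferon-inducible GTPases tested, which act on vacuoles that hold pathogens, were called higher (median 2.57). Gbp3 had 53.4 and 73.4 without LPS and 839.6 and 838 with LPS (3.65 ± 0.16; adjusted p = 8.6e-12). Gbp6, Gbp2 and Gbp7 changed by 3.26 ± 0.23, 2.94 ± 0.15 and 2.57 ± 0.12, and the immunity-related GTPases Iigp1, Irgm2 and Igtp by 2.66 ± 0.42, 1.94 ± 0.16 and 1.04 ± 0.24. Of 39 antiviral effectors 22 were called higher and 0 lower (median 0.71). Ifit1, which binds foreign RNA caps, went from 116 and 90.6 to 2244 and 2062 (4.33 ± 0.14; adjusted p = 7.9e-14), and Rsad2, which makes a chain-terminating nucleotide, from 410.1 and 353 to 5040.4 and 5106 (3.72 ± 0.11; adjusted p = 1.5e-14). Mx1, a dynamin-like antiviral GTPase, went from 55.7 and 42.1 to 898 and 1008 (4.18 ± 0.22), and Cmpk2, the mitochondrial nucleotide kinase that neighbours Rsad2, from 61.9 and 57.6 to 1182 and 1022 (4.11 ± 0.20). The group did not move as a whole. Ifih1, the RNA sensor MDA5, changed by 1.87 ± 0.12, while Oas1a, Oas2, Oas3, Ifitm3 and Bst2 had changes of 0.14, 0.09, -0.21, -0.19 and 0.17 and were not called. Over the alternatives between 17 and 22 of the 39 were called higher.

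Ifnb1, which encodes interferon beta, had signals of 29.1 and 3.1 without LPS and 22.3 and 26.9 with LPS, dim values, with 1 unstimulated array above both LPS arrays (0.87 ± 0.68; adjusted p = 0.52). Among 17 genes of interferon production and signalling 3 were called higher: Irf1 from 135 and 172 to 417 and 623 (1.72 ± 0.16), the receptor kinase Jak2 from 1160.0 and 1273 to 2905 and 3328 (1.35 ± 0.09) and Usp18, a brake on the interferon receptor, from 291 and 275 to 582 and 663 (1.12 ± 0.15). Irf8, a myeloid lineage factor, was the member called lower, from 567 and 489.5 to 289 and 311 (-0.80 ± 0.14). Irf7 and Irf9, usually interferon-induced, had changes of 0.06 and 0.10 and were not called. Neither were the receptor chains Ifnar1 and Ifnar2, at 0.03 and -0.18.

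Of 20 cytokines and growth factors 10 were called higher and 0 lower (median 0.96). Tnf, the early inflammatory cytokine, had 127 and 190.1 without LPS and 1625 and 1526 with LPS (3.31 ± 0.14; adjusted p = 4.9e-12). Il1b rose from 30.8 and 41.6 to 328 and 412 (3.21 ± 0.18; adjusted p = 3.5e-10), and Il1a from 1.1 and 22 to 80.6 and 94 (2.92 ± 0.44). Il6 was under the pseudocount on 1 unstimulated array and reached 106 and 88.6 (3.62 ± 0.35; adjusted p = 7.7e-07). Il15, which sustains NK cells, went from 90.6 and 60.6 to 357 and 349.6 (2.19 ± 0.20), and Csf1, the macrophage growth factor, from 196 and 116 to 570.4 and 543 (1.85 ± 0.19). Tnfsf10 (TRAIL), Csf2, Lif and Tnfsf9 changed by 2.32 ± 0.56, 1.51 ± 0.38, 1.29 ± 0.27 and 1.28 ± 0.24. Tnfsf10 was dim without LPS, at 13.9 and 19.2. The calls of Tnfsf10 and Csf2 did not hold in every fit with 1 array left out. Il10, Il12b, Il23a and Il1rn were not called, at 0.31, 0.47, 0.63 and 0.22, where WT changed by 2.41, 0.09, 3.26 and 0.49. The difference between the IRAK4-KD and WT changes was not called in any of them, which does not show equal changes.

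NF-κB genes and their own feedback regulators were raised broadly: 15 of 20 were called higher and 0 lower, with a median of 1.10. Among the subunits, Nfkb2, precursor of p52 in the non-canonical route, went from 65.3 and 30.2 to 385 and 488 (3.16 ± 0.25; adjusted p = 5.2e-08), and Relb, Rel and Rela changed by 1.78 ± 0.26, 1.14 ± 0.26 and 0.75 ± 0.17. Among the inhibitors, Nfkbie rose from 116 and 161 to 728 and 733 (2.38 ± 0.14), Nfkbiz, a nuclear co-activator of this family, from 499.8 and 611 to 2108 and 2056 (1.91 ± 0.11), and Nfkbia changed by 0.78 ± 0.09. Tnfaip3, the ubiquitin-editing enzyme A20, had 91.9 and 153 without LPS and 649 and 732 with LPS (2.49 ± 0.16; adjusted p = 2.0e-09). Nfkbib, Traf2, Nfkbid, Cyld and Tnip2 were not called, with changes between -0.37 and 1.46.

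The inhibitors of cytokine and MAP kinase signalling, a list that also held the G-protein regulators Rgs1 and Rgs2, divided. Of 21 tested, 3 were called higher and 7 lower, and the list median was -0.01. Socs3, which blocks gp130 receptors, rose from 3.8 and 3.9 to 51.1 and 56.1 (2.81 ± 0.34; adjusted p = 1.2e-05). The largest fall was in Rgs2, a brake on G-protein signalling, which had 2015 and 1878 without LPS and 506 and 457 with LPS (-2.01 ± 0.10; adjusted p = 8.6e-11), with 3 of its 3 probe sets called lower. The ERK phosphatases Dusp7 and Dusp6 fell by 1.52 ± 0.20 and 1.16 ± 0.13 on the log2 scale, Dusp6 from 1130.5 and 1206 to 512 and 531. Rgs1, Dusp1, Dusp3 and Spry2 had smaller falls, of -0.70 ± 0.11, -0.58 ± 0.18, -0.53 ± 0.11 and -0.51 ± 0.12. Dusp1 lost its call in 9 of the 12 fits with 1 array left out, and Spry2 in 2. The 7 falls were 3 with a variance prior without a trend. Without LPS 4 h replicate 2, or without unstimulated replicate 2, 1 member was called higher in place of 3. Of 26 immediate early transcription factors 4 were called higher at 4 h (Nr4a3 at 3.27 ± 0.40, Ier3 at 2.04 ± 0.15, Fosl1 at 1.22 ± 0.23 and Fosl2 at 0.31 ± 0.10) and 3 lower (Egr2 at -0.70 ± 0.09, Jun at -0.44 ± 0.09 and Fos at -0.40 ± 0.12). Fosl2 lost its call in 10 of the 12 fits with 1 array left out and had a change of -0.40 when its probe sets were averaged. Nr4a3 started at 3.4 and 3 and reached 74.3 and 63.6. With a variance prior without a trend the 3 falls of this list were 1. Over all tested genes, 6.16% were called higher and 5.97% lower.

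Effector enzymes rose as a group, with 17 of 24 called higher and 0 lower (median 1.36). Acod1, which makes itaconate, went from 656 and 673 to 5695 and 6153 (3.15 ± 0.09; adjusted p = 1.5e-14). In prostaglandin synthesis, Ptgs2 rose from 1074 and 985 to 5089.8 and 4868 (2.27 ± 0.09; adjusted p = 1.4e-12) and Ptges from 96.2 and 84.1 to 525 and 551 (2.52 ± 0.16; adjusted p = 1.7e-09). Mitochondrial Sod2 went from 464 and 489 to 2126 and 2392 (2.23 ± 0.10). Nos2, which makes nitric oxide from arginine, stayed dim, going from 4 and 11 to 45.5 and 45.4 (2.13 ± 0.65), and its call was lost in 6 of the 12 fits with 1 array left out, while the arginine transporter Slc7a2 rose from 276 and 369 to 1193 and 1265 (1.93 ± 0.15). Of the 4 tested probe sets of Slc7a2, only 1 was called higher. Slc7a11, the cystine importer, changed by 1.49 ± 0.24, and Ch25h, which makes 25-hydroxycholesterol, by 1.34 ± 0.17. Of 18 extracellular proteases and their inhibitors 8 were called higher and 1, Mmp8, lower. Beside Adamts4, Mmp14 went from 13.1 and 5.2 to 100.2 and 98.8 (3.00 ± 0.32; adjusted p = 2.7e-06) and Timp1 from 81 and 78.5 to 249.5 and 225 (1.52 ± 0.18). Of the 3 tested probe sets of Mmp14, only 1 was called higher. Stromal markers moved in the same direction as these protease genes.

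Of 21 surface molecules of co-stimulation, adhesion and activation 13 were called higher and 0 lower (median 1.19). Cd69, an early activation antigen, had 109 and 85.6 without LPS and 2086 and 1819 with LPS (4.27 ± 0.15; adjusted p = 4.9e-13). Fas, a death receptor, went from 116 and 114 to 977 and 959 (3.02 ± 0.14), and the adhesion molecule Icam1 from 503 and 451 to 3412 and 3465 (2.84 ± 0.11; adjusted p = 1.0e-12). Clec4e (Mincle) changed by 2.44 ± 0.09, Icosl by 2.13 ± 0.16 and Cd274, which encodes PD-L1, by 1.60 ± 0.10. Of the B7 ligands of CD28, Cd86 was called at 0.91 ± 0.24 and Cd80 was not, at 0.33. In antigen presentation, where 6.16% of all genes were called higher, 3 of 14 class I genes were called higher (Tapbpl at 2.35 ± 0.43, the transactivator Nlrc5 at 1.16 ± 0.13 and Psmb10 at 0.57 ± 0.15) and 1 lower (H2-K1 at -0.35 ± 0.09), and of 9 class II genes 0 were called higher and 1, the protease Lgmn, lower (-0.61 ± 0.14). H2-K1 had a change of 0.11 when all its probe sets were averaged, and class I genes are near-identical in sequence, so its level is uncertain.

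Transcripts of the receptor pathway itself changed in few members, 4 of 18 higher and 1 lower. Tlr4 fell from 1632 and 1810.5 to 1254 and 1099 (-0.55 ± 0.10; adjusted p = 0.0011). Irak3 (IRAK-M), a kinase-inactive brake on this pathway, rose from 420.0 and 543 to 1615 and 1599 (1.74 ± 0.13; adjusted p = 1.8e-08), and Irak2 from 192 and 153 to 255 and 278 (0.62 ± 0.16). Ikbke, a relative of TBK1, changed by 1.66 ± 0.19 and the ubiquitin ligase Peli1 by 1.50 ± 0.12. The adaptors Myd88, Tirap and Ticam1 (TRIF) were not called, at 0.41 ± 0.17, -0.11 ± 0.12 and 0.65 ± 0.30, nor were Cd14, Ly96 (MD-2), Irak1, Traf6, Tbk1 and Irf3, with changes of 0.08, 0.15, -0.28, 0.21, 0.41 and -0.49. Of 8 other Toll-like receptors, Tlr2 rose from 156 and 170.0 to 1512 and 1379 (3.11 ± 0.13). Its partner Tlr1 rose from 184 and 169.5 to 839 and 869 (2.25 ± 0.13). The nucleic acid sensors Tlr13 and Tlr7 fell, Tlr13 from 1308 and 1338 to 664 and 592 (-1.07 ± 0.10) and Tlr7 by 0.46 ± 0.13. Tlr7 and Irak2 each lost their call in 3 of the 12 fits with 1 array left out. The fall of Tlr4 was not called without a trend in the variance prior or when its probe sets were averaged.

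Among 17 inflammasome and cell death genes 7 were called higher and 1 lower. Nlrp3, the inflammasome sensor, went from 39 and 43.3 to 402 and 400.1 (3.16 ± 0.20; adjusted p = 2.1e-09), and Casp4, the cytosolic LPS receptor caspase-11, from 249 and 315 to 1228 and 1487 (2.25 ± 0.13; adjusted p = 3.2e-10). Gadd45b and Cflar, which oppose death signals, changed by 1.64 ± 0.13 and 0.99 ± 0.10, and Bcl2 fell, with -0.77 ± 0.16. Without LPS 4 h replicate 2 the count of 7 was 4. Of 19 genes of cytokine mRNA decay, the endonuclease genes Zc3h12a (Regnase-1) and Zc3h12c rose by 2.41 ± 0.22 and 2.77 ± 0.20 and Zfp36 (tristetraprolin) by 0.95 ± 0.11. Zfp36l2 and Parn fell, with -0.60 ± 0.10 and -1.25 ± 0.38, where 5.97% of all genes were called lower. These 2 falls were 1 with each array centred on its median and 0 when probe sets of a gene were averaged. The Bcl2 fall was also not called when probe sets were averaged.

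**Figure D2:**
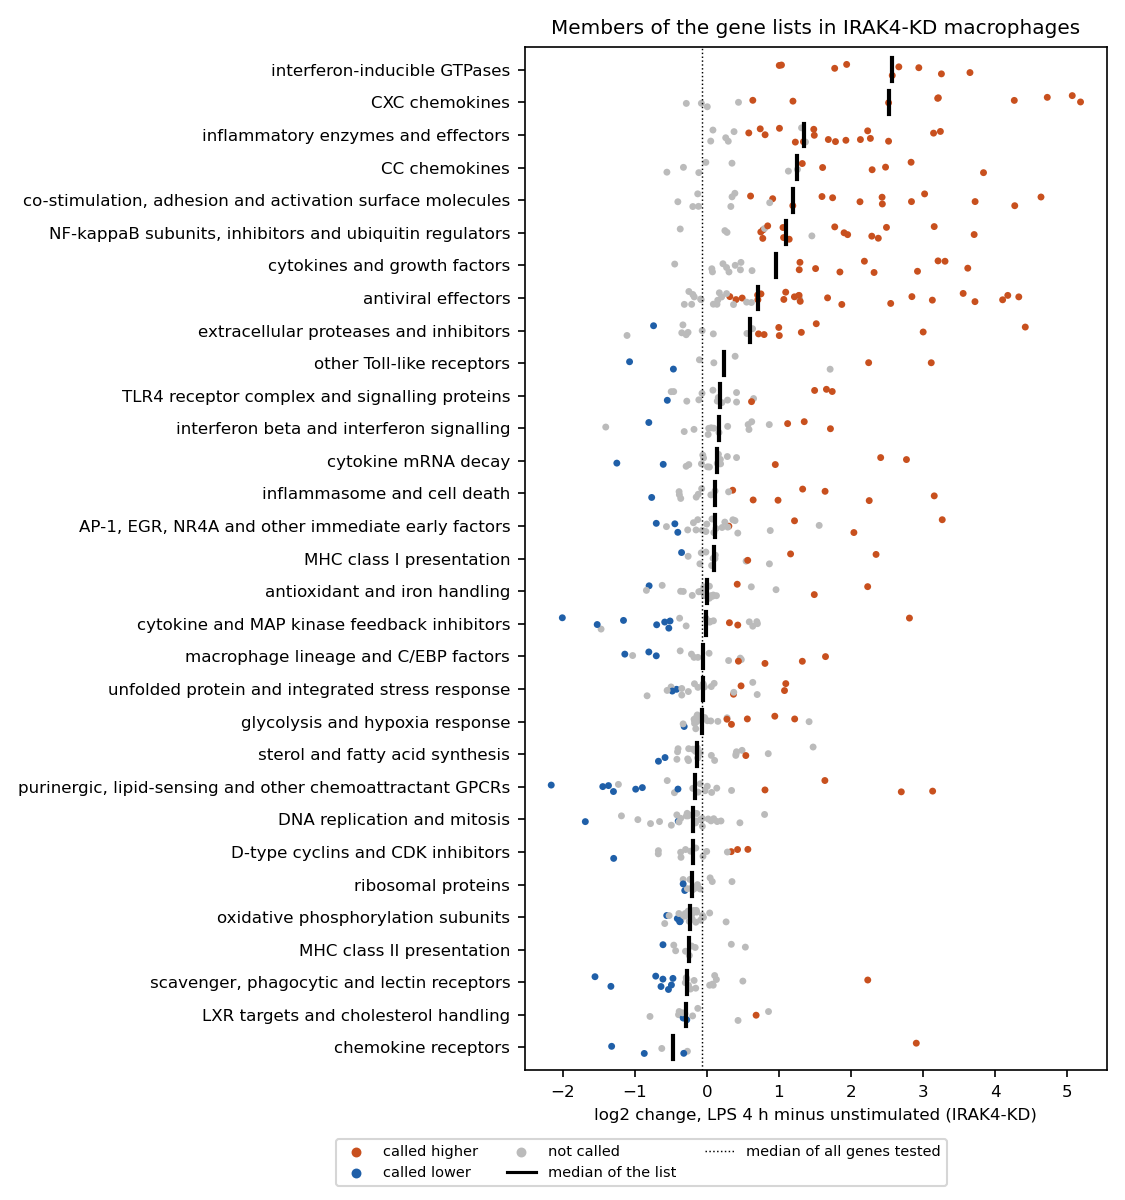
Log2 change at LPS 4 h in IRAK4-KD macrophages of every tested member of 31 gene lists, 1 point a gene (orange called higher, blue called lower, grey not called); black bars are list medians and the dotted line is the median of all tested genes, -0.06. The medians run from 2.57 for the interferon-inducible GTPases to -0.47 for the chemokine receptors, and most lists hold uncalled members.

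Decreases were smaller than increases. Among the 25 largest called falls 18 had a mean unstimulated signal under 100, as had 21 of the 25 largest increases, and 17 of the 25 lost their call in at least 1 fit with an array left out. The falls kept in every such fit, picked after values were seen, included brighter genes. Rnf144b, a ubiquitin ligase, had 1112 and 1142 without LPS and 322 and 318 with LPS (-1.80 ± 0.11; adjusted p = 1.0e-09). Map3k1, a kinase upstream of JNK, went from 1484 and 2018 to 563 and 586 (-1.58 ± 0.14), and St8sia4, a polysialyltransferase, from 2362 and 2252 to 900.4 and 782 (-1.45 ± 0.10). Gpr155 fell from 610.5 and 590.2 to 205 and 209 (-1.52 ± 0.12), the Ras activator Rasgrp3 from 219 and 221 to 71.4 and 41.9 (-1.92 ± 0.23) and Sesn1, a stress-induced regulator of mTORC1, from 136 and 194 to 40.3 and 41.1 (-1.89 ± 0.28). The pseudogene Hmga2-ps1 went from 640.0 and 690.2 to 166 and 142, and its value is uncertain where a related gene shares its sequence.

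**Figure D3:**
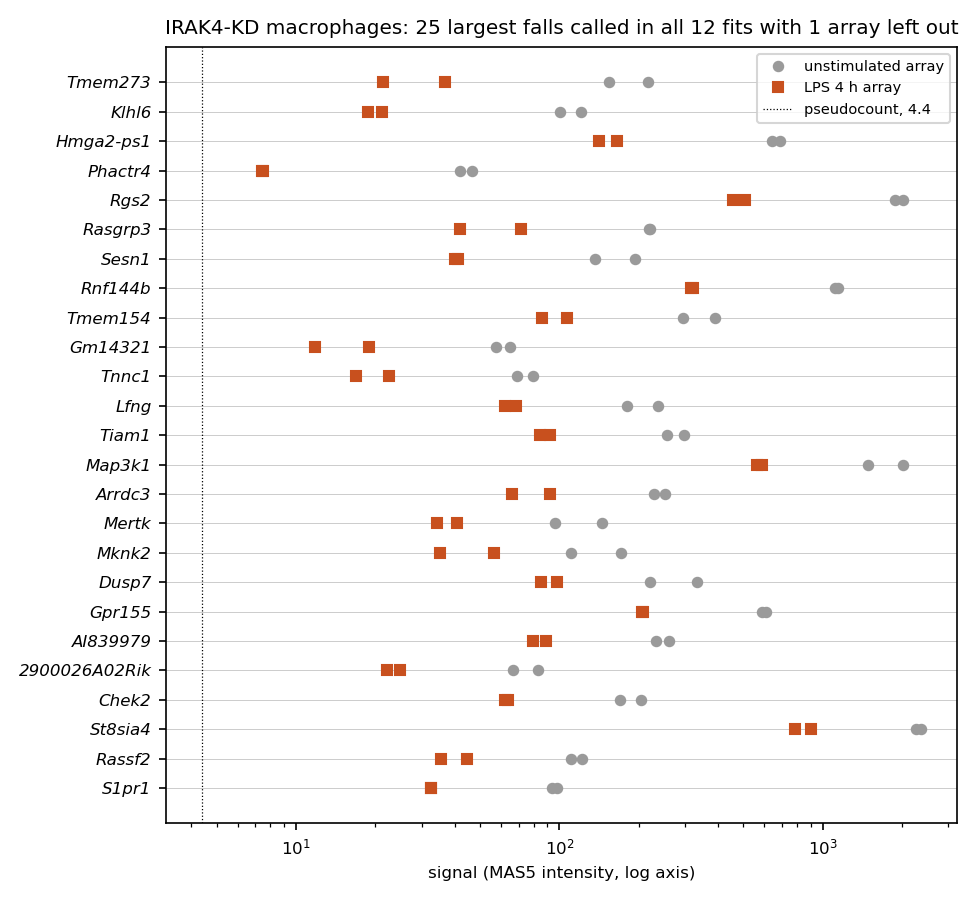
Signal on each IRAK4-KD array (log axis) of the 25 largest falls that were called in all 12 fits with 1 array left out, grey circles without LPS and orange squares with LPS; the dotted line marks the pseudocount of 4.4. The groups do not overlap in any of them, and Rgs2 (2015 and 1878 without LPS) and St8sia4 (2362 and 2252) are the brightest.

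By function, the falls included phagocytic and G-protein-coupled receptors. Of 23 scavenger, phagocytic and lectin receptors 8 were called lower and 1 higher (median -0.28). Over all tested genes, 5.97% were called lower and 6.16% higher. Mertk, which engulfs apoptotic cells, fell from 146 and 96.1 to 40.8 and 34.4 (-1.55 ± 0.24; adjusted p = 1.9e-04), and the Fc receptor Fcgr3 from 2609.9 and 2699.5 to 1662 and 1583 (-0.71 ± 0.09). The inhibitory Fc receptor Fcgr2b was the member that rose, from 38.8 and 39.7 to 192 and 210.5 (2.23 ± 0.29). The count of 8 was 3 without LPS 4 h replicate 1, 5 without any of the other 3 IRAK4-KD arrays of the comparison, and 5 with each array centred on its median. Of 22 G-protein-coupled receptors 7 were called lower and 4 higher, counts to be read against the same shares of all genes. Lpar6, a lysophosphatidic acid receptor, went from 905 and 899 to 330.0 and 366 (-1.36 ± 0.13; adjusted p = 7.1e-07), and S1pr1, which guides cells to sphingosine-1-phosphate, from 93.8 and 98.2 to 32.5 and 32.5 (-1.44 ± 0.29). Gpr84, a receptor for medium-chain fatty acids, rose from 17.1 and 65.5 to 341 and 331 (3.13 ± 0.34), and Fpr2, which senses formyl peptides, from 1108 and 1146 to 3261 and 3794 (1.64 ± 0.10). The 7 falls were 4 without LPS 4 h replicate 1, LPS 4 h replicate 2 or unstimulated replicate 2. Among the C/EBP factors, Cebpa fell from 2030.1 and 1656 to 806 and 856 (-1.14 ± 0.12; adjusted p = 3.0e-06), while Cebpb and Cebpd rose by 1.33 ± 0.14 and 1.65 ± 0.18. Ccnd1, which encodes cyclin D1, fell from 2043 and 2103 to 851 and 836 (-1.29 ± 0.10; adjusted p = 4.5e-08). Of 28 DNA replication and mitosis genes 2 were called lower and 0 higher, where 5.97% of all genes were called lower, and the 2 were 0 without LPS 4 h replicate 1 or unstimulated replicate 2.

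Calls in housekeeping and metabolic lists can be read against the 12.1% of all genes called in either direction. Of 26 oxidative phosphorylation subunits 4 were called lower and 0 higher (Ndufv1, Ndufs3, Sdhb and Sdha, between -0.56 and -0.37), and 0 were called with arrays centred on their medians or without either unstimulated array. Of 13 ribosomal proteins 2 were called lower, Rps19 and Rpl4, a count that was 0 without unstimulated replicate 1 or LPS 4 h replicate 1. Of 22 glycolysis and hypoxia genes 5 were called higher and 1 lower; Hif1a went from 1155 and 1154 to 1748 and 1667 (0.56 ± 0.09), and the count of 5 was 1 without LPS 4 h replicate 1 and 2 without LPS 4 h replicate 2 or unstimulated replicate 2. Of 22 sterol and fatty acid synthesis genes 2 were called lower (Dhcr7 at -0.67 ± 0.12 and Scd2 at -0.58 ± 0.14) and 1 higher (Scd1 at 0.54 ± 0.10). The iron exporter Slc40a1 fell from 456 and 456 to 290.5 and 232 (-0.80 ± 0.13). Of 22 stress response genes 4 were called higher, among them Herpud1, which acts in the degradation of misfolded proteins (1.08 ± 0.15), and 2 lower. The 4 were 1 without LPS 4 h replicate 2 and 2 without unstimulated replicate 2, and the 2 falls were 0 without LPS 4 h replicate 1, LPS 4 h replicate 2 or unstimulated replicate 2.

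At 1 h some of these genes stood near or above their 4 h level and others were near their unstimulated level. The 1 h and 4 h changes share the unstimulated arrays, and those were kept for 4 h, so LPS and time in culture differ together at 1 h. Cxcl1 had 4733 and 4555 at 1 h and 3419 and 3433 at 4 h. Tnf had 1748 and 1986 at 1 h and 1625 and 1526 at 4 h, while Zfp36 went from 1742 and 1849.6 at 1 h to 534 and 520.3 at 4 h and Ier3 from 1001 and 1085 to 485 and 474. These 4 genes were no lower at 1 h than at 4 h on any array. Adamts4 had 70.5 and 40.8 at 1 h, overlapping its unstimulated values, and 1076 and 1302 at 4 h. Cd40 went from 13.3 and 8.1 at 1 h to 216 and 266 at 4 h, and Ccl5 from 1779 and 1883 to 3439.9 and 3917. The interferon-inducible GTPases had a median change of 0.78 at 1 h and 2.57 at 4 h.

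**Figure D4:**
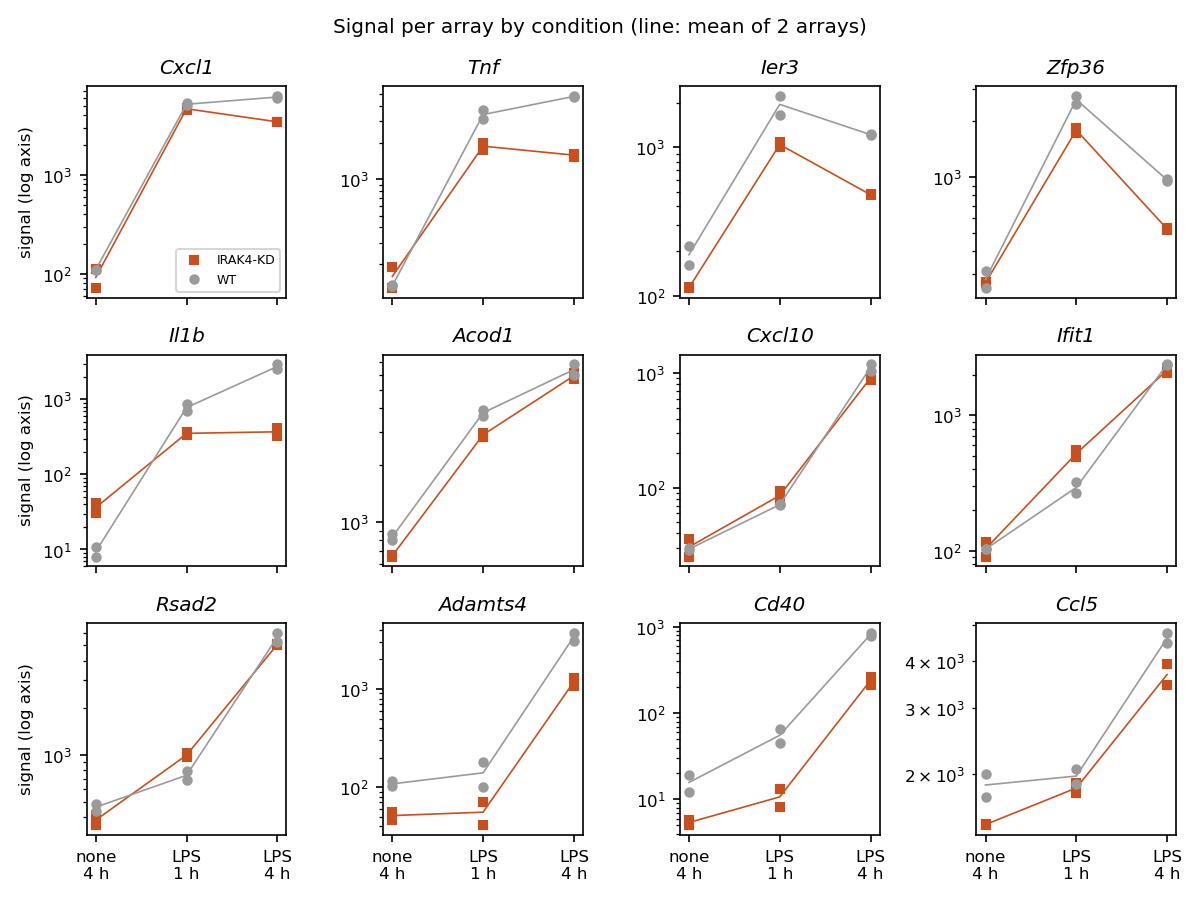
Signal on each array (log axis) of 12 genes in IRAK4-KD (orange squares) and WT (grey circles) macrophages without LPS and after 1 h and 4 h of LPS, with lines through the means of 2 arrays; the vertical range differs between panels. Cxcl1, Tnf, Ier3 and Zfp36 are high in IRAK4-KD at 1 h, while Cxcl10, Adamts4, Cd40 and Ccl5 reach their highest values at 4 h, and Il1b differs between the strains (328 and 412 against 2940.5 and 2547 at 4 h).

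The same contrast in WT macrophages, which shares no array with the IRAK4-KD contrast, called 975 genes higher (7.55%) and 1651 lower (12.8%). Over probe sets the WT split was 1940 higher and 2842 lower, and it turned round to 2695 and 1822 with each array centred on its median. Of the 795 genes higher in IRAK4-KD, 501 were called higher in WT, which is 63% of the IRAK4-KD and 51.4% of the WT increases. The strain difference is the IRAK4-KD change minus the WT change. In 315 of these 501 genes its 95% interval lay within a factor of 2 in either direction. Of the 315, 16 also had a called strain difference. Genes with so bounded a difference included Cxcl1 (interval -0.95 to -0.15 on the log2 scale), Cxcl10 (-0.92 to 0.24), Ifit1 (-0.55 to 0.27), Rsad2 (-0.20 to 0.44), Acod1 (-0.04 to 0.49), Cd69 (-0.18 to 0.73), Tlr2 (-0.65 to 0.11), Gbp2 (-0.84 to 0.04), Nfkb2 (-0.82 to 0.69) and the ligand-activated factor Ahr (-0.45 to 0.64). Rsad2 reached 5040.4 and 5106 in IRAK4-KD and 6022 and 5301 in WT. Of the 771 decreases, 522 were also called lower in WT, 67.7% of the IRAK4-KD and 31.6% of the WT list. A difference so bounded was found in 386 of the 522, of which 7 also had a called difference. For Cebpa the difference was 0.11 ± 0.17, for Mertk -0.36 ± 0.34 and for Tlr13 0.09 ± 0.14.

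A strain difference was called in 489 genes, 318 positive (2.46%) and 171 negative (1.32%). Over probe sets 524 differences (1.88%) were positive and 333 (1.19%) negative, so 61.1% were positive, a share that was 42.9% with each array centred on its median, so the direction of this split rests on the scaling. Calls of differences also rested on the variance prior: without its trend, 4 probe sets were called positive and 7 negative. Among the 501 shared increases 89 had a called difference, in 84 of which WT changed more. Il6 reached 106 and 88.6 in IRAK4-KD and 1722 and 1779 in WT, with changes of 3.62 and 8.41 and a difference of -4.79 ± 0.50 (adjusted p = 6.1e-05). Il1b started at 30.8 and 41.6 in IRAK4-KD and at 8 and 10.8 in WT; at 4 h it stood at 328 and 412 in IRAK4-KD and at 2940.5 and 2547 in WT (difference -4.43 ± 0.26; adjusted p = 3.0e-08), and Il1a reached 80.6 and 94 in IRAK4-KD against 1395 and 1474 in WT (difference -3.72 ± 0.63; adjusted p = 0.0029). Tnf differed by -1.83 ± 0.20, Nlrp3 by -2.62 ± 0.29, Csf2 by -2.56 ± 0.53 and Socs3 by -1.86 ± 0.48. Of the lists, 7 of 20 cytokines and 8 of 24 effector enzymes had a called negative difference, against 0 of 9 interferon-inducible GTPases, 0 of 13 CXC chemokines and 4 of 39 antiviral effectors. Their medians in WT were 2.34, 1.70, 3.07, 1.96 and 1.04 in that order. Called negative differences were also found in 5 of 20 NF-κB genes and 3 of 13 CC chemokines, and 2 effector enzymes had positive ones. A missing call does not show an equal change. The GTPases named above all had negative differences, among them Iigp1 at -1.78 ± 0.59 and Gbp3 at -0.54 ± 0.23. Among uncalled CXC chemokines, Cxcl2 differed by -0.66 ± 0.18 and Cxcl12 by 0.91 ± 0.38. Ptgs2 had a called positive difference, changing by 2.27 in IRAK4-KD and 1.73 in WT (0.54 ± 0.13, adjusted p = 0.023). It started lower in IRAK4-KD, at 1074 and 985 against 2068 and 1873 in WT. At 4 h it was still lower in IRAK4-KD, at 5089.8 and 4868 against 7091 and 6014 in WT. In the limma fit without the trend in the prior, the adjusted p of its difference was 0.309. Among the falls, Fos fell less in IRAK4-KD, from 1773 and 2049 to 1416 and 1467, and went from 1117 and 1359.5 to 163 and 136 in WT (difference 2.61 ± 0.17; adjusted p = 9.2e-08). Il6, Il1b and Fos kept an adjusted p under 0.05 without the trend in the prior, at 0.0418, 0.0116 and 0.0386.

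**Figure D5:**
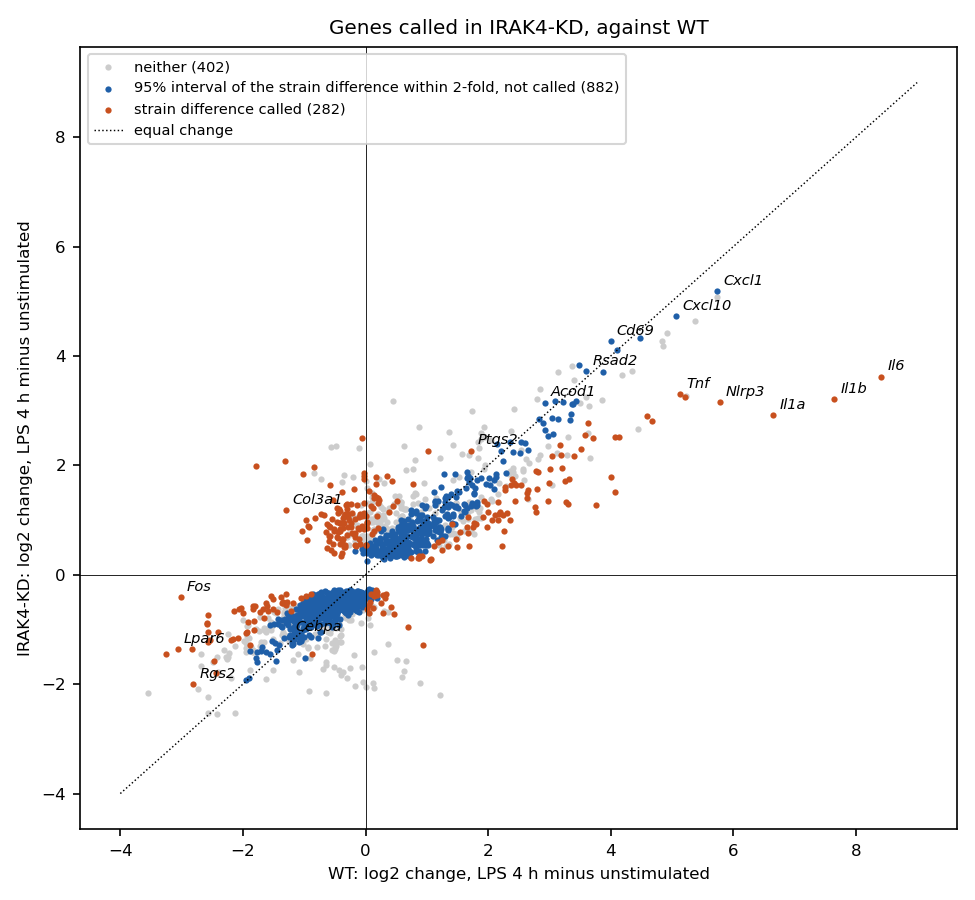
Log2 change at LPS 4 h in IRAK4-KD (vertical) against WT (horizontal) macrophages for the 1566 genes called in IRAK4-KD, 1 point a gene; orange marks 282 genes with a called strain difference, blue 882 genes whose 95% interval of the difference lies within 2-fold and that are not called, and the dotted line marks equal change. Cxcl1, Cxcl10, Cd69 and Rsad2 lie near the line, and Il6, Il1b and Il1a lie far to the right of it.

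A total of 270 genes were called higher in IRAK4-KD and not called in WT, of which 93 had a called strain difference, and 24 were called higher in IRAK4-KD and lower in WT. Picked from those 24 after values were seen, Adam23 went from 854 and 701 to 2039.5 and 1385 in IRAK4-KD and from 2350.5 and 1846 to 1188 and 1325 in WT. Gas1 went from 108 and 91.9 to 228 and 193 in IRAK4-KD and from 384 and 293 to 196 and 179.8 in WT. Mylk, a contractile kinase of smooth muscle, went from 963 and 809 to 1530.0 and 1366 in IRAK4-KD. In WT it went from 2124 and 1853 to 1321 and 1340.1. Of the 24 genes, only Cpe, Ak1, Gas1, Crim1, Adam23 and Arhgap29 kept their IRAK4-KD call whichever array was left out. Mylk lost it in 1 of the 12 fits, and Pmepa1, Cryab and Il7 each lost it in 10. In 24 of the 24 genes both IRAK4-KD unstimulated arrays lay below both WT unstimulated arrays, which was so for 89 of the 93 genes, for 59.7% of the 795 genes called higher and for 21.9% of all tested genes; the same unstimulated arrays enter the change itself. Stromal markers showed the same pattern, with 7 of 13 having a called positive strain difference and Col3a1, a fibrillar collagen, at 2.47 ± 0.42 (adjusted p = 0.0031). The part of stromal RNA in these 24 genes was not tested.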

How the data were processed

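RNA of 12 macrophage cultures was amplified (NuGEN Ovation, per the labels' protocols) and hybridised to 1-colour mouse expression arrays, 2 for each of 6 groups. The deposited values are linear signal intensity per probe set, made by the authors with MAS5 per the submitters' processing notes, whose version is not given in the sources used here. Each array had a trimmed mean of 150, so the arrays share that scaling. Array medians divided by genotype, at 18.9 to 22 on the WT and 24.2 to 26.9 on the IRAK4-KD arrays. Replicates correlated at Spearman 0.879 to 0.913. Their number limits the precision.

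Here the intensity was taken as log2(signal + 4.4), the pseudocount being the 20th percentile of the deposited table. Probe sets that exceeded their array's median in 2 or more of the 12 arrays (27931 of 45101) were tested with limma 3.58.1 in R 4.3.3 (all 12 arrays in 1 fit, trended variance prior, Benjamini-Hochberg over all tested probe sets, adjusted p under 0.05). The annotation gave 34958 probe sets 1 gene symbol, 932 several and 9211 none. A gene is represented by 1 tested probe set, taken by its type and then by the highest mean. Other tested probe sets of a called gene were not always called. Genes were named by rule: the 25 largest called increases and decreases, up to 8 called members of each gene list, the 10 highest and 10 lowest called strain differences, 15 shared changes bounded within 2-fold, and the receptor pathway with Ifnb1. Other called members, uncalled members given with their values, stromal markers and the falls kept in every fit were named after their values were seen. The comparison and the lists were chosen with earlier results of these data known. The fit was tested on simulated data. Alternatives were other scalings, filters, pseudocounts and variance priors, a replicate block and leaving out each array. Same-numbered arrays did not deviate together (correlation -0.0328 between unstimulated and LPS 4 h IRAK4-KD arrays), so the numbers were not taken as pairs.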

Additional observations from a re-analysis of the deposited data

Results flagged for a closer look

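The strain difference of the 4 h response, the IRAK4-KD log2 change minus the WT change, was called by limma in 57 of the named genes, 36 negative and 21 positive. These are listed because the response to the same LPS treatment differed between the genotypes by a test of the difference itself. Among cytokines and surface or secreted effectors, the difference was -4.79 for Il6, -4.43 for Il1b, -3.72 for Il1a, -2.56 for Csf2, -2.47 for Tnfsf9, -2.01 for Lif, -1.83 for Tnf, -1.21 for Ccl4 and -0.67 for Ccl3. Among effector enzymes, transporters and extracellular proteins, the difference was -2.22 for Serpinb2, -1.98 for Olr1, -1.61 for Ptges, -1.08 for Slc7a2 and -1.17 for Mmp13. Among receptors and pathway proteins, the difference was -2.62 for Nlrp3, -1.68 for Ccrl2, -1.13 for Peli1, -0.53 for Cd14, -0.52 for Tab2 and -0.58 for Jak2. Among feedback regulators and NF-κB genes, the difference was -1.86 for Socs3, -1.22 for Tnfaip3, -0.88 for Nfkbiz, -0.80 for Nfkbie, -1.0 for Dusp1, -0.99 for Rgs1, -0.82 for Zfp36 and -0.73 for Gadd45b. Among transcription and chromatin factors, the difference was -2.22 for Brpf1, -1.53 for Irf1, -1.45 for Tfec and -0.77 for Egr2. Among the remaining genes, the difference was -1.03 for Oasl1, -0.68 for H2-K1, -0.58 for Cdkn1a and -0.49 for Rpl4. 

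Positive differences, in which the IRAK4-KD change was the higher or less negative, were the smaller set among the named genes, 21 of 57. Over all tested genes, with signals as deposited, they were the larger set, 318 (2.46%) against 171 negative (1.32%). For immediate early and feedback genes, the difference was 2.61 in Fos, 1.07 in Jun, 0.92 in Dusp6, 1.11 in Spry2 and 0.80 in Rgs2. For lipid synthesis genes, it was 1.47 in Dhcr7, 1.25 in Scd2 and 0.53 in Scd1. For collagen and growth-related genes, it was 2.47 in Col3a1, 2.21 in Aebp1, 1.96 in Il7 and 0.59 in Ccnd1. For receptors, it was 1.70 in Lpar6 and 1.90 in F2r. For the remaining genes, it was 3.78 in Nxn, 3.39 in Top3a, 2.87 in Celsr3, 2.81 in Rai2, 2.55 in Grb14, 0.63 in Rnf144b and 0.54 in Ptgs2. 

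Of the 57 differences 3 (Il6, Il1b and Fos) were called with a variance prior without a trend. Of the 25 largest IRAK4-KD increases 3 (Il6, Tnf and Olr1) had a called difference. H2-K1 was called lower in IRAK4-KD and higher in WT, and Il7, Col3a1 and Nxn were called higher in IRAK4-KD and lower in WT. Il7 lost its IRAK4-KD call in 10 of the 12 fits with an array left out, H2-K1 and Nxn in 3 each and Col3a1 in 2. The difference of 3.78 in Nxn rests in part on signals close to the pseudocount. Nxn had 6 and 5.1 in unstimulated IRAK4-KD cells and 4.3 and 6.9 in WT cells at LPS 4 h. With 2 arrays a group, single arrays were not tested for standing apart.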

How the results depend on the processing

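The numbers of called probe sets depended on the variance prior and on single arrays. Without a trend in the prior, IRAK4-KD calls were 840 higher and 486 lower, WT decreases 1830, strain differences 4 positive and 7 negative, genes higher in both strains 317 (154 with a difference within 2-fold) and genes lower in both 222 (146 within 2-fold). With only the 4 arrays of the comparison 864 were lower. Median centring gave 1822 WT decreases, 516 negative strain differences and 257 bounded shared decreases. Leaving out 1 array gave 946 to 1547 IRAK4-KD increases and 630 to 1368 decreases, 1235 to 2074 WT increases and 1620 to 2984 decreases, and 165 to 616 positive and 90 to 381 negative strain differences. Shared increases ranged from 376 to 506 (bounded 200 to 324) and shared decreases from 314 to 527 (bounded 219 to 392). With the replicate number as a block, 1444 were higher and 1221 lower; same-numbered arrays shared only a number, so this is no pairing.

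Of 214 named genes called in IRAK4-KD, 119 kept their direction and call under all 22 settings. Averaging all tested probe sets of a gene turned Fosl2 to -0.40 (adjusted p = 0.46) and H2-K1 to 0.11 (adjusted p = 0.55), which is set by the probe sets averaged; the causes of the other shifts were not tested. Of the 25 largest falls 17 lost their call in a fit with 1 array left out, all 17 with an unstimulated mean signal under 100, while the 25 largest increases, 21 of them under 100, kept theirs.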
